A study of Mus musculus with 8 samples.

Results

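The 10 genes described here encode the nuclear receptors and cofactors that set the fuel use of heart muscle: the 3 peroxisome proliferator-activated receptors (Ppara, Ppard, Pparg), the 3 estrogen-related receptors (Esrra, Esrrb, Esrrg), the PGC-1 coactivators (Ppargc1a, Ppargc1b), the receptor partner Rxra and the corepressor Nrip1. They were taken by gene name from a table of 17911 genes, and all 10 were found in it. Whole hearts of C57Bl6/J wild-type mice from 4 females and 4 males were sequenced to compare the RNA of the sexes. Each library came from 1 heart homogenized in Trizol; the kit is described as isolating small RNA, while the molecule is given as total RNA. No cell type was isolated, no animal was treated or carried an altered allele, and all hearts have the same batch label. The mice were called adult, with an age of 4 weeks in the series' design and 4 to 6 weeks in the protocol. Female replicates are numbered 1 to 4 and male replicates 1, 3, 4 and 5.

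PPARs are switched on by fatty acids and bind DNA as dimers with a retinoid X receptor. ERRs have no known natural hormone, and their activity depends largely on PGC-1, which also coactivates PPARs. In heart muscle, these receptors drive the genes of fatty acid oxidation, the citric acid cycle and the respiratory chain, and RIP140, the product of Nrip1, opposes them.

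Libraries held 51.7 M to 66.3 M reads assigned to genes in females and 55.0 M to 75.7 M in males. The values below are normalized read counts, that is, reads per gene divided by the authors' size factor for that heart. The rarest member, Pparg, still rested on at least 555 reads in every heart. The cardiomyocyte marker Actn2 (the Z-disc protein alpha-actinin) ran from 110299 to 117747 in females and from 110503 to 118133 in males. It varied least within a sex of the 10 cardiomyocyte markers, and 2 others had no overlap between the sexes, beside 9.35% of all genes. Actc1 ran from 476642 to 521348 in females and from 525110 to 606956 in males. Ryr2 went the other way, from 126349 to 130901 in females and from 105166 to 118086 in males. Actn2 and Actc1 were not named by the rule given below. Differences were tested with limma on log2(value + 1), female minus male, with p-values adjusted over all 17911 genes and called at an adjusted p under 0.05. Of the 10 cardiomyocyte markers, 3 had an unadjusted limma p under 0.05, beside 16.0% of all genes. In whole-heart RNA, fewer cells of a type and less RNA per cell cannot be told apart.

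The start of Ppargc1a is shown because this variable coactivator gene is known to be induced through cyclic AMP, and 2 starts of Pparg because a gene-level count adds their transcripts together. RefSeq's promoter table (GRCm38.p6, the build named mm10 in the submitters' processing notes) held 9 of the 10 members with 17 starts in all, Ppargc1b being the exception. The 200 bases before the listed start of Ppargc1a (chr5:51567726-51567925, minus strand) hold the letters TGACG once, a cyclic AMP response element half-site, read on the opposite strand and printed in capitals. Its leftmost printed base lies at position -49 from the start.
Ppargc1a: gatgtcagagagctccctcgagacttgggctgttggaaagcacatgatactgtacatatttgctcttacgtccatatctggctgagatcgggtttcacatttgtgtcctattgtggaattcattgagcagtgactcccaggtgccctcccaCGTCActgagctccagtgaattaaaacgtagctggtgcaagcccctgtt
Pparg has 3 listed starts. The 120 bases before the first (chr6:115361024-115361143, plus strand) and the last (chr6:115421946-115422065, plus strand) differ in composition. The GC content of the 250 bases before the start is 82.4% for the most upstream start and 40.8% for the most downstream one. The nuclear receptor half-site AGGTCA is in capitals.
Pparg first start: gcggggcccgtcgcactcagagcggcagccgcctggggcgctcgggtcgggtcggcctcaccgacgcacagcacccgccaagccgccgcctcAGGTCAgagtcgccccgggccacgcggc
Pparg last start: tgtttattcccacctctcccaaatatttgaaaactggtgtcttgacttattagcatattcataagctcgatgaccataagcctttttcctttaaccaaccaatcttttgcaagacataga
In mice the downstream promoter is known to give the PPAR gamma 2 form typical of fat, and the table has 1 value per gene, so the forms were not told apart. Over windows from 250 bases before to 50 after a start, searched on both strands, the letters TGACG were found in 4 of the 17 member windows and in 20.8% of all 32851 windows. The full cyclic AMP response element TGACGTCA was found in 0 of the 17 and in 1.79% of all windows. The half-site AGGTCA was found in 3 of the 17 and in 16.3% of all windows. The ERR response element TNAAGGTCA was found in 0 of the 17 and in 1.28% of all windows, and AGGTCA repeated with any 1 base between, the form of a PPAR site, in 0 of the 17 and in 0.0396% of all. Half-sites also count where they lie inside a longer motif.

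None of the 10 regulators passed the test between the sexes, and the values of every one of them overlapped between female and male hearts. Of all genes tested, 208 (1.16%) were called, 0.475% higher and 0.687% lower in females, so a count of 0 among 10 is close to that background. That count ran from 77 (without female replicate 2) to 516 (without male replicate 5) when 1 heart was left out. At an unadjusted p under 0.05, 2 members passed (Esrrb and Nrip1), against 16.0% of all genes. Of all genes, 9.35% had no overlap between the sexes. Fold changes were positive for 7 members and negative for 3, with a median log2 of 0.07, beside a median of 0.00 over all genes. With edgeR's quasi-likelihood test 0 members were called, and likewise with DESeq2, which called 3.85% of all genes. In the authors' deposited table, where 3.85% of genes had an adjusted p under 0.05, the smallest adjusted p of a member was 0.131 (Esrrb).

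**Figure D1:**
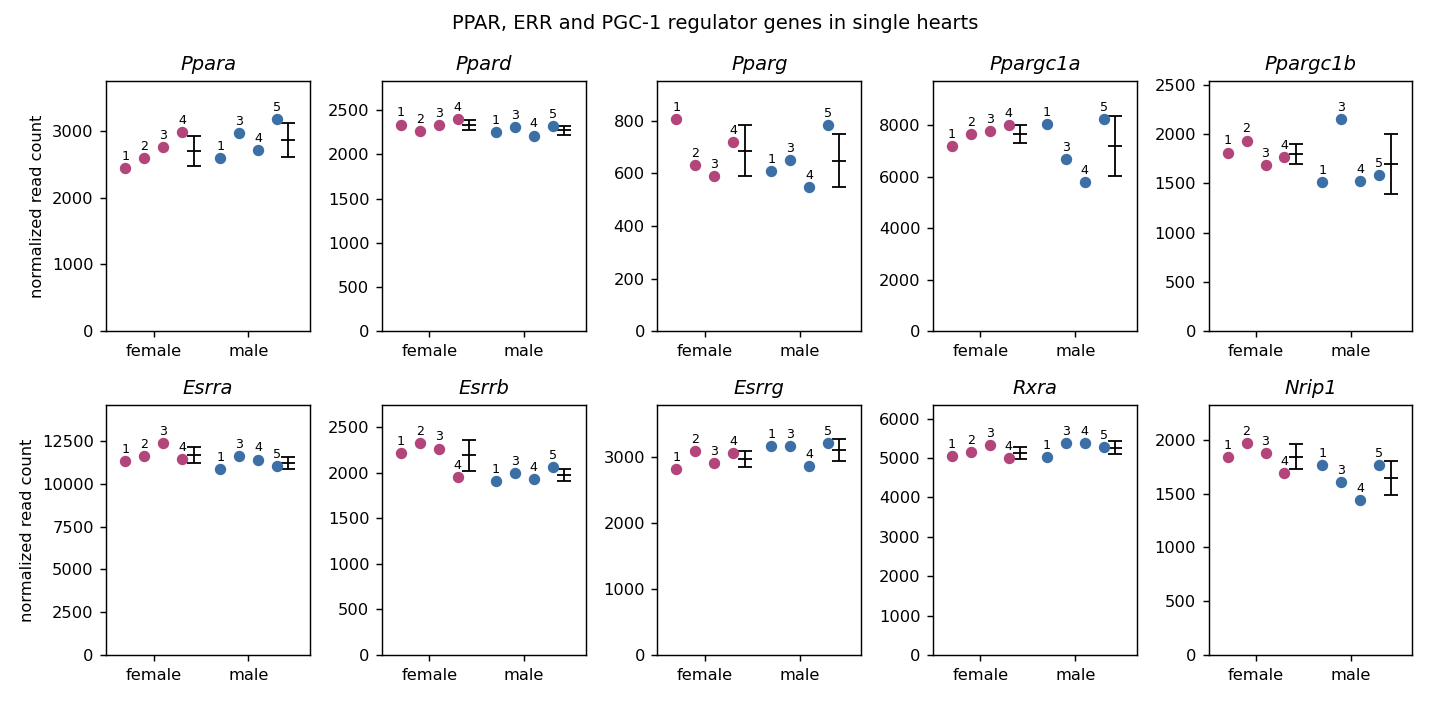
Normalized read count (y axis, from 0) of each of the 10 regulators in every heart, female left and male right. Points are hearts with their replicate number, and the bar is the mean with its SD (n = 4). The sexes overlap in all 10 panels, and the widest relative spreads are those of Pparg, Ppargc1b and Ppargc1a.

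Among the PPARs, Ppara (chr15:85734983-85802819, plus strand, mm10), the main PPAR of fatty acid oxidation in heart muscle, had 2449, 2594, 2759 and 2977 in female replicates 1 to 4, against 2598, 2968, 2710 and 3176 in male replicates 1, 3, 4 and 5. Females 1 and 2 lay below every male, and females 3 and 4 lay within the male range. Its log2 fold change was -0.09 (SE 0.07, 95% interval -0.25 to 0.08, limma adjusted p = 0.624), and -0.17 with total reads as a covariate (limma adjusted p = 0.188).

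Ppard (chr17:28232700-28301474, plus strand), the most widely expressed PPAR in the body, was the steadiest of the 10 genes between hearts of a sex. It had 2337, 2260, 2335 and 2397 in female replicates 1 to 4, against 2253, 2308, 2212 and 2319 in male replicates 1, 3, 4 and 5. Of the female hearts 3 lay above every male, but by at most a few percent, and the fourth lay inside the male range. The interval of its difference ran from -2.49% to 7.96% (log2 fold change 0.04, SE 0.03, limma adjusted p = 0.648).

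Pparg (chr6:115360951-115490399, plus strand), the PPAR of fat cell formation, had 806, 632, 591 and 717 in female replicates 1 to 4, against 609, 652, 549 and 784 in male replicates 1, 3, 4 and 5. It was high in 1 heart of each sex, female replicate 1 and male replicate 5, and its difference, a log2 of 0.08, was smaller than its SE of 0.12 (limma adjusted p = 0.796). Leaving out 1 heart gave values from 0.0040 (female replicate 1 left out) to 0.18 (male replicate 5 left out). Genes of fat cells, another cell type that whole hearts can hold, are given beside it. The summed count of 9 fat markers was 13935, 4524, 3371 and 5814 in female replicates 1 to 4, against 6623, 5702, 4905 and 4366 in male replicates 1, 3, 4 and 5. None of the 9 was at 0 in any heart and 0 passed in limma. Female replicate 1 had the highest fat sum and the highest Pparg, whereas male replicate 5 combined the second highest Pparg with a fat sum below those of the other 3 males. Adipoq, which encodes adiponectin and was chosen after its values were seen, was 1283 in female replicate 1 and 329 in male replicate 5. The part of fat in the Pparg values was not tested.

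Neither PGC-1 coactivator differed between the sexes beyond its error. Their coefficients of variation were 4.47% in females and 16.1% in males for Ppargc1a, and 5.85% in females and 18.1% in males for Ppargc1b, a difference in spread that was not tested. Ppargc1a (chr5:51454250-51567726, minus strand), which encodes PGC-1 alpha, had 7205, 7656, 7792 and 8018 in female replicates 1 to 4, against 8062, 6702, 5800 and 8244 in male replicates 1, 3, 4 and 5. All 4 females lay inside the male range. Its level averaged 7668 ± 343 in females and 7202 ± 1161 in males (mean ± SD, n = 4 per sex), a log2 fold change of 0.10 (SE 0.11, 95% interval -0.16 to 0.37, limma adjusted p = 0.719). The low male replicates 3 and 4 are also the most deeply sequenced libraries, with 74.8 M and 75.7 M reads. With total reads as a covariate the log2 fold change of Ppargc1a was -0.010 and that of Pparg -0.019, both turned in sign. Without male replicate 4 the log2 fold change of Ppargc1a was 0.0047.

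Ppargc1b (chr18:61298136-61400431, minus strand), which encodes PGC-1 beta, had 1812, 1933, 1681 and 1763 in female replicates 1 to 4, against 1516, 2150, 1521 and 1586 in male replicates 1, 3, 4 and 5. Males 1, 4 and 5 lay below every female, and male replicate 3 lay above every female. The log2 fold change was 0.10 (SE 0.11, limma adjusted p = 0.725), and without male replicate 3 it was 0.22 (limma adjusted p = 0.0946). Male replicate 3 was thus low for the alpha coactivator and high for the beta one, and the ratio of their levels per length followed. Per kilobase of exon Ppargc1a was 2.59 ± 0.219 times Ppargc1b in females and 2.64 ± 0.650 times in males (mean ± SD, n = 4 per sex), with 1.89 as the lowest male value.

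The corepressor gene Nrip1 (chr16:76287400-76373827, minus strand) had the largest fold change of the 10 without passing. It had 1839, 1972, 1877 and 1694 in female replicates 1 to 4, against 1768, 1608, 1443 and 1763 in male replicates 1, 3, 4 and 5. Of the females 3 lay above every male, and female replicate 4 fell inside the male range. The difference was 12.4% (95% interval 1.29% to 24.7%), a log2 fold change of 0.17 (SE 0.07, limma unadjusted p = 0.031, adjusted p = 0.262). Without 1 heart its log2 fold change ran from 0.11 to 0.21 and its adjusted p from 0.156 to 0.481. Its lowest value, like those of Ppargc1a, Pparg and Ppard, was in male replicate 4.

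Among the ERRs, Esrrb showed the clearest tendency between the sexes. Esrrb (chr12:86361117-86521628, plus strand), best known for its part in stem cell renewal and placenta formation, had 2216, 2325, 2263 and 1946 in female replicates 1 to 4, against 1904, 1996, 1932 and 2056 in male replicates 1, 3, 4 and 5. Again 3 females lay above every male, and again female replicate 4 was the exception. The difference was 10.7% (95% interval 2.24% to 19.9%), a log2 fold change of 0.15 (SE 0.05, limma unadjusted p = 0.0165, adjusted p = 0.203). Without female replicate 4 the log2 fold change was 0.20 and the adjusted p 0.0527, which is the lowest adjusted p of any member under any of the alternatives tried. Neither Esrrb nor Nrip1 shares exons with another annotated gene.

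Esrra (chr19:6910977-6921813, minus strand), the ERR most closely tied to mitochondrial genes, had 11337, 11640, 12400 and 11430 in female replicates 1 to 4, against 10871, 11623, 11428 and 11022 in male replicates 1, 3, 4 and 5. The log2 fold change was 0.06 (SE 0.04, limma adjusted p = 0.475), with an interval from -1.43% to 9.97%. An exon of Trmt112 lies on the opposite strand over an exon of Esrra. No label or header says whether counting used strand, so reads in that overlap are of uncertain origin. Trmt112 itself had 1187 ± 77.4 in females and 1148 ± 20.9 in males (mean ± SD, n = 4 per sex), fewer than Esrra. Its exons are also shorter, 1.233 kb against 4.387 kb for Esrra, and the effect of the overlap on either count was not tested.

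Esrrg (chr1:187608791-188214885, plus strand), needed for the switch to oxidative metabolism in the newborn mouse heart, had 2823, 3091, 2916 and 3060 in female replicates 1 to 4, against 3177, 3173, 2866 and 3221 in male replicates 1, 3, 4 and 5. Male replicate 4 stood below the other 3 males, and without it the log2 fold change was -0.10, beside -0.06 (SE 0.04, limma adjusted p = 0.529) with all hearts. Rxra (chr2:27676440-27762957, plus strand), the retinoid X receptor that partners PPARs, had 5055, 5164, 5335 and 4993 in female replicates 1 to 4, against 5017, 5387, 5378 and 5279 in male replicates 1, 3, 4 and 5. Its interval ran from -7.34% to 2.74% (log2 fold change -0.04, limma adjusted p = 0.670). Both receptors had overlapping sexes.

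**Figure D2:**
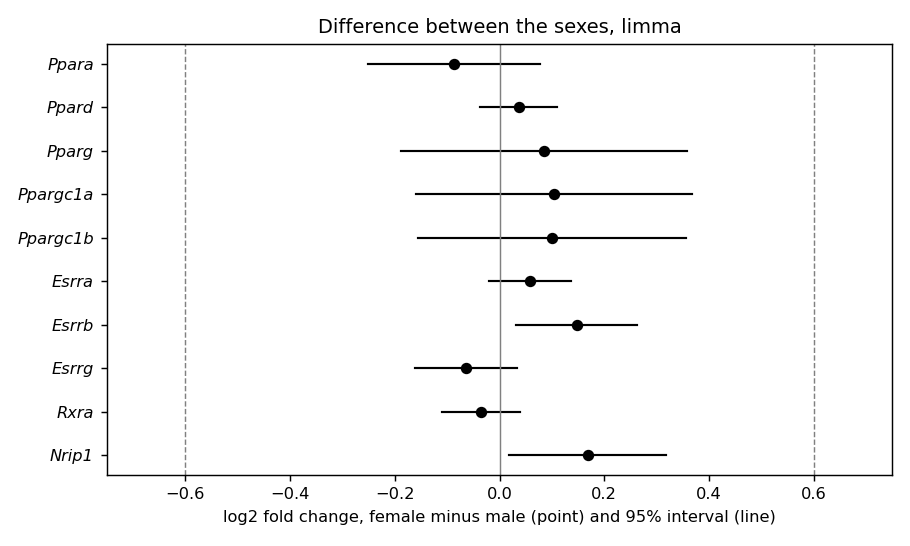
Log2 fold change, female minus male (x axis), of the 10 regulators with the 95% interval from limma. Dashed lines mark 0.6 in either direction, the fold change cutoff that the series states, and every interval ends inside them. The intervals of Esrrb and Nrip1 alone lie above 0, before adjustment over all genes.

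The intervals say how large a difference the 8 hearts leave possible. The widest upper bounds were 28.9% for Ppargc1a, 28.1% for Pparg and 27.9% for Ppargc1b, and the lowest lower bound was -16.0% for Ppara. For Ppard, Rxra and Esrra the bounds stayed within 10 percent of equality in both directions. A limma p above the threshold does not show that the sexes are alike, and differences within these bounds could not be resolved with 4 hearts per sex.

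Compared per kilobase of exon, Esrra was the most abundant regulator in every heart and Nrip1 the least. Esrra averaged 2614 ± 105 normalized reads per kilobase over the 8 hearts (SD), above 95.3% of the genes in the table. Ppargc1a followed with 1128 ± 126 and Rxra with 952 ± 30.2, and their ranges overlapped. Ppara, at 724 ± 63.4, overlapped with neither neighbour in this order. Esrrg had 490 ± 24.7, Ppargc1b 437 ± 54.9, Esrrb 344 ± 27.3 and Ppard 306 ± 7.78 normalized reads per kilobase, and within this run each neighbouring pair overlapped. Pparg (226 ± 31.4) and Nrip1 (152 ± 14.4) stood apart at the low end. Within the PPARs, Ppara was 3.07 ± 0.527 times Pparg per kilobase in females and 3.43 ± 0.295 times in males (mean ± SD, n = 4 per sex). Within the ERRs, Esrra was 5.58 ± 0.342 times Esrrg in females and 5.13 ± 0.380 times in males (mean ± SD, n = 4 per sex), and Esrrg was above Esrrb in every heart. Lengths are of all annotated exons of a gene joined, so a gene whose heart transcripts use fewer exons is set too low.

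**Figure D3:**
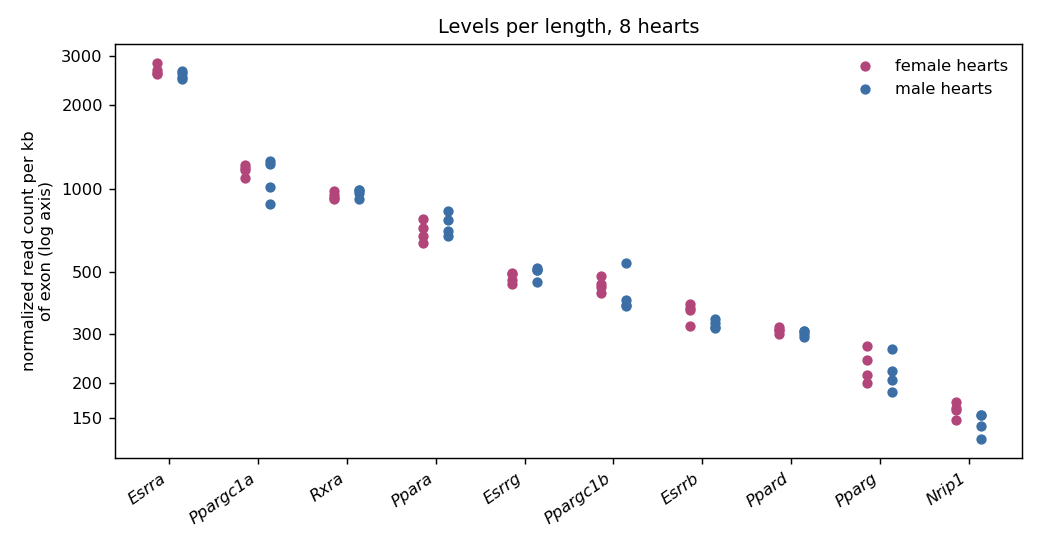
Normalized read count per kilobase of exon (log axis) of the 10 regulators in female and male hearts, 1 point per heart, ordered by the mean over the 8 hearts. Esrra lies above all others in each heart, and Pparg and Nrip1 lie at the low end.

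The regulators differed in how much they varied within a sex. The mean of the female and male coefficients of variation was 2.30% for Ppard, 3.10% for Rxra and 3.61% for Esrra. It was 4.74% for Esrrg and 5.54% for Esrrb. It was 7.81% for Nrip1, 8.74% for Ppara, 10.3% for Ppargc1a, 12.0% for Ppargc1b and 14.7% for Pparg. Over the 9445 genes with a mean value of at least 500, the median was 4.13%, and 93.3%, 95.5% and 97.1% of them varied less than Ppargc1a, Ppargc1b and Pparg. The value of Ppargc1b rests on male replicate 3, without which it was 4.19%, and that of Ppargc1a was 7.73% without male replicate 4, both computed after the values were seen. Counting error alone is smaller than the spread of Pparg with all hearts, since 555 reads, its fewest in a heart, give 4.24%. For Ppard the fewest reads, 1922, give 2.28%, close to its whole spread of 2.30%. Ppargc1a and Ppara were both highest in male replicate 5, where Pparg was second highest. Ppargc1b was highest in male replicate 3, Pparg in female replicate 1 and Nrip1 in female replicate 2.

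Over the 8 hearts, none of the 45 pairs of members was correlated after adjustment over the pairs (smallest adjusted p = 0.798, exact permutation). The highest r was that of Esrrb and Nrip1, the 2 members with the largest differences between the sexes, with Pearson's r = 0.766 (exact permutation p = 0.021) and Spearman's rho = 0.738 (exact permutation p = 0.0458, adjusted p = 0.854). Without the 2 hearts farthest from the median of Esrrb, female replicates 2 and 3, r was 0.540, and with each sex mean subtracted it was 0.583. With sex means subtracted, r was highest for Esrra and Rxra (0.890) and for Ppargc1a and Esrrg (0.776), given as a description over 8 hearts. Ppargc1a and its antagonist Nrip1 had r = 0.746 (exact permutation p = 0.0355) and rho = 0.310 (exact permutation p = 0.462). Without male replicates 3 and 4 that r was -0.544, so the relation rests on those hearts. Receptor and partner, Ppara and Rxra, were not among the pairs with an unadjusted p under 0.05.

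The genes whose pattern over the 8 hearts was most like a member's, after each sex mean was subtracted, are given as a description. Of 7328 genes with a mean value of at least 1000, Smc6, Noc2l and Hsd17b10 were nearest to Ppara, with r = 0.997, 0.982 and 0.975. Zfp68, Acsl4 and B230219D22Rik were nearest to Ppargc1a, with r from 0.951 to 0.963. For Esrra they were Baz2a, Sin3a and Mrps15 (r from 0.964 to 0.975), and for Esrrg Prpf18, Mcur1 and Adcy5 (r from 0.954 to 0.965). These are the highest of 7328 values over 8 points, and no member of the family is among them.

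Partners and cofactors of the regulators did not pass either. Of 13 such genes 0 were called, 4 had an unadjusted limma p under 0.05 (beside 16.0% of all genes), 9 had positive and 4 negative fold changes, and the median log2 was 0.04. The acetyltransferase gene Crebbp had 1875 ± 105 in females and 1705 ± 107 in males (mean ± SD, n = 4 per sex; limma adjusted p = 0.231). Rxrg, the retinoid X receptor form of striated muscle, had 4015 ± 151 in females and 4260 ± 58.8 in males (log2 fold change -0.09, limma adjusted p = 0.235). Perm1, a muscle gene induced by PGC-1 and ERR, had 23364 ± 1021 in females and 22435 ± 748 in males (limma adjusted p = 0.495). Rxrg and Perm1 were chosen after their values were seen.

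The 9 genes that regulate PGC-1 include the kinase genes Prkaa1 and Prkaa2 and the transcription factor genes Mef2c and Creb1. Of these 9, 0 were called and 2 had an unadjusted limma p under 0.05 (beside 16.0% of all genes), with a median log2 of 0.06. The deacetylase gene Sirt1 had 1182 ± 50.7 in females and 1067 ± 100 in males (mean ± SD, n = 4 per sex, limma adjusted p = 0.271). Atf2, which encodes a factor acting on the Ppargc1a promoter, had 2188 ± 34.4 in females and 2065 ± 71.9 in males (mean ± SD, n = 4 per sex), without overlap but with a limma adjusted p = 0.276.

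Of 11 genes that supply PPARs with fatty acids, 1 fell and 10 did not pass (median log2 -0.01). At an unadjusted limma p under 0.05 there were 4 of the 11, beside 16.0% of all genes. DESeq2, which called 3.85% of all genes, called 3 of the 11, namely Fabp3, Lpl and Lipe. Fabp3, the fatty acid binding protein of heart muscle, had 137863, 137739, 143055 and 141675 in female replicates 1 to 4, against 153987, 160463, 167526 and 153724 in male replicates 1, 3, 4 and 5. Every female lay below every male, and its log2 fold change was -0.18 (limma adjusted p = 0.0328). Leaving out female 1, 2 or 4, or male 3 or 4, ended this call (limma adjusted p up to 0.123). Further genes, chosen after their values were seen, did not pass in limma. Lpl, the lipase that frees fatty acids from lipoproteins, had 335763 ± 14217 in females and 306068 ± 11444 in males (limma adjusted p = 0.133). Abhd5, the activator of the fat droplet lipase, had 2587 ± 119 in females and 2846 ± 62.7 in males (limma adjusted p = 0.108), and Lipe, hormone-sensitive lipase, had 4830 ± 577 in females and 3896 ± 479 in males (limma adjusted p = 0.242; ± SD, n = 4 per sex).

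Among known PPAR target genes the calls went in both directions. Of 24 measured genes 1 rose, 2 fell and 21 did not pass. Of the 24, 8 had an unadjusted limma p under 0.05, beside 16.0% of all genes. Fold changes were positive for 12 and negative for 12, and the median log2 was -0.01. DESeq2 called 6 of the 24, beside 3.85% of all genes. Slc25a20, the carnitine carrier of mitochondria, had 10999, 10659, 11238 and 10926 in female replicates 1 to 4, against 12564, 12564, 12390 and 13390 in male replicates 1, 3, 4 and 5 (log2 fold change -0.22, limma adjusted p = 0.00956). Slc27a1, a fatty acid transport protein, had 17878, 16763, 17038 and 18651 in female replicates 1 to 4, against 15338, 14515, 13394 and 14794 in male replicates 1, 3, 4 and 5 (log2 fold change 0.28, limma adjusted p = 0.0148). Neither overlapped between the sexes, and both kept their call without any 1 heart.

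Decr1, which handles unsaturated fatty acids in beta oxidation, fell by 0.18 in log2 (22329 ± 676 in females and 25231 ± 802 in males, n = 4 per sex, limma adjusted p = 0.0306). Leaving out female 1, 2 or 4, or male 1 or 3, ended its call (limma adjusted p up to 0.0844). Further oxidation genes chosen after their values were seen had negative values without passing in the main limma fit. Among them Cpt2 and Hadh were called by DESeq2. In limma Cpt2 was also called with a filter at a mean value of 100. Without male replicate 5 it was called as well (limma adjusted p = 0.0417). Cpt2, the inner carnitine palmitoyltransferase, had a log2 fold change of -0.14 (limma adjusted p = 0.0515). The dehydrogenase genes Hadh and Acadm had log2 fold changes of -0.16 and -0.12 (limma adjusted p = 0.0697 and 0.164). Shares of called genes in these lists can be read against the 1.16% of the whole table, with no test of the difference.

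Some PPAR targets known to respond to fasting varied more between hearts of the same sex than Ppara did, by their coefficients of variation. These were chosen after their values were seen. Pdk4, the kinase that restrains glucose oxidation, had 75498, 40184, 22187 and 55675 in female replicates 1 to 4, against 72138, 95793, 39439 and 35965 in male replicates 1, 3, 4 and 5. Its highest heart had 4.32 times the value of its lowest, whereas for Ppara that ratio was 1.30. Ucp3, an uncoupling protein of muscle, had 9012, 8138, 6177 and 6273 in female replicates 1 to 4, against 6866, 8012, 3402 and 5148 in male replicates 1, 3, 4 and 5. Neither passed the test between the sexes. The log2 fold change was -0.35 for Pdk4 (SE 0.50, limma adjusted p = 0.801) and 0.39 for Ucp3 (SE 0.30, limma adjusted p = 0.594).

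The order of hearts differed in part between Pdk4 and Ppara. Male replicate 3, with the most Pdk4, was also high for Ppara at 2968. Male replicate 5, with the most Ppara, had the second lowest Pdk4 of all, and female replicate 1, with the least Ppara, had the second highest. Within a sex the coefficient of variation was 46.8% for Pdk4, 46.0% for Angptl4, 26.7% for Ucp3 and 10.1% for Cpt1a. Cpt1a, the liver-type carnitine palmitoyltransferase, had 5453 ± 352 in females and 4829 ± 663 in males (mean ± SD, n = 4 per sex, limma adjusted p = 0.444). The list as a whole had a median of 4.08%.

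**Figure D4:**
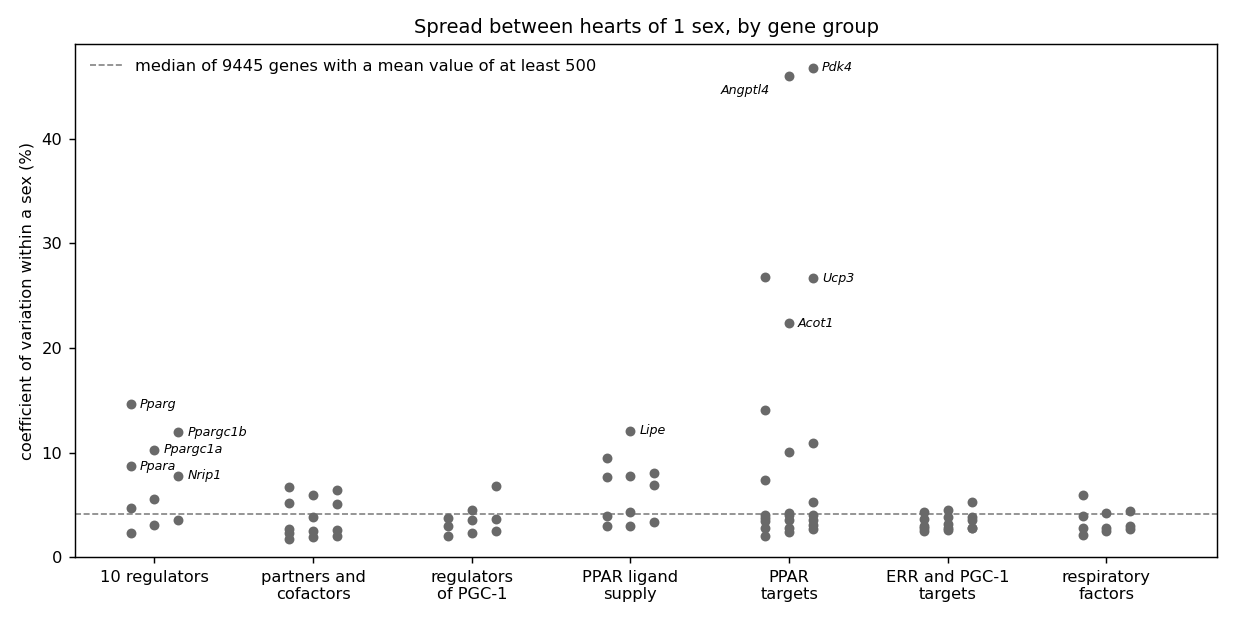
Coefficient of variation within a sex (mean of the female and the male value, in percent) of each gene, by gene group, with the median of 9445 genes as a dashed line. Among the PPAR targets, Pdk4 lies at 46.8% and Angptl4 at 46.0%, whereas no ERR and PGC-1 target exceeds 5.34%.

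None of the ERR and PGC-1 target genes passed the test. Of 15 genes of the citric acid cycle, respiratory chain and mitochondrial fusion, such as Cs, Sdha, Atp5b and Mfn2, 0 were called and 0 had an unadjusted limma p under 0.05, against 16.0% of all genes. With DESeq2, 0 of the 15 were called as well. Fold changes ran from a log2 of -0.08 to 0.06 with a median of 0.00. Their within-sex coefficients of variation lay between 2.55% and 5.34%. The nearest to the threshold were Cycs, cytochrome c, with 28772 ± 1159 in females and 30257 ± 946 in males, and the mitochondrial creatine kinase gene Ckmt2, with 101250 ± 4617 in females and 107252 ± 4901 in males (mean ± SD, n = 4 per sex; limma adjusted p = 0.354 and 0.362).

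Of 10 genes for nuclear respiratory factors and the upkeep of mitochondrial DNA, which act downstream of PGC-1, 0 were called (median log2 0.02). An unadjusted limma p under 0.05 was found for 3 of them, beside 16.0% of all genes. Twnk, the mitochondrial DNA helicase, had 2285 ± 89.9 in females and 2084 ± 102 in males (limma adjusted p = 0.164), and Tfb1m, a methyltransferase of mitochondrial ribosomal RNA, had 428 ± 28.1 in females and 481 ± 25.8 in males (limma adjusted p = 0.260; n = 4 per sex). Neither overlapped between the sexes.

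Clock genes are given beside the regulators because Ppara and the PGC-1 genes are known to follow the time of day, and no time of dissection is stated. Dbp, a direct output of the clock that was chosen after its values were seen, had 4282, 5610, 6980 and 4283 in female replicates 1 to 4, against 2435, 2454, 4143 and 6655 in male replicates 1, 3, 4 and 5. Of 14 clock genes 0 were called in limma and 2 had an unadjusted p under 0.05 (beside 16.0% of all genes). Their median log2 was 0.14. Nr1d1, the receptor REV-ERB alpha, had 10716 ± 1145 in females and 8163 ± 1826 in males, and Cry2 had 2719 ± 238 in females and 2358 ± 290 in males (mean ± SD, n = 4 per sex; limma adjusted p = 0.296 and 0.305). Male replicate 5, high for Dbp, was also the heart with the highest Ppara, Ppargc1a and Esrrg. Female replicate 3, with the most Dbp, was not the highest heart for any of those 3. The part of the time of day in these values was not tested.

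**Figure D5:**
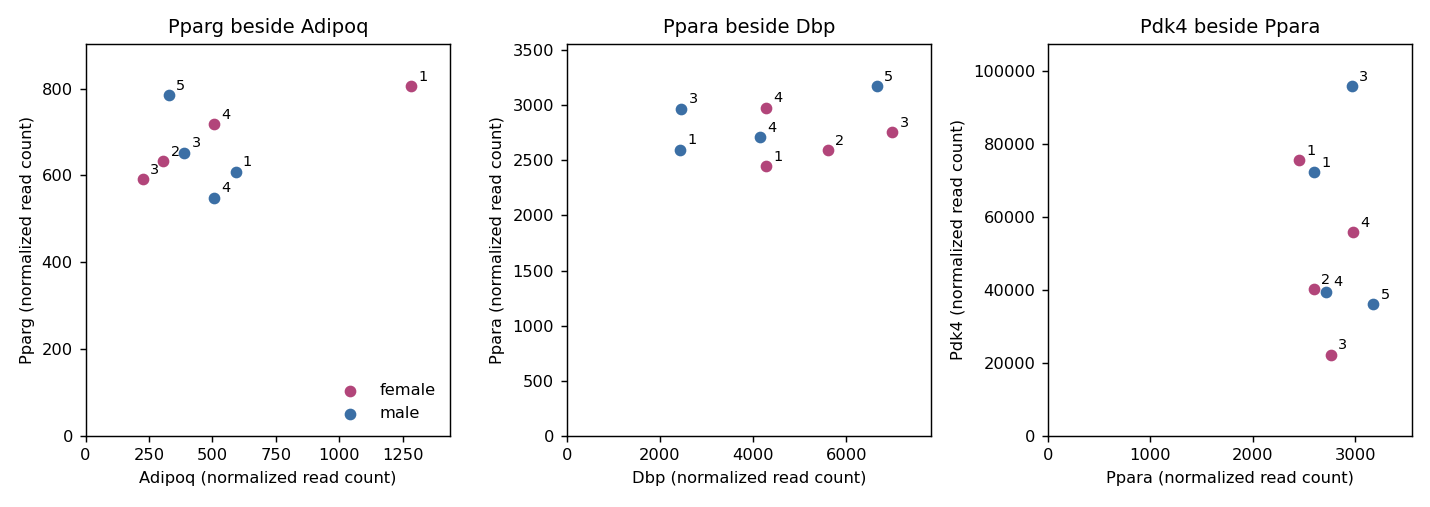
Normalized read counts in single hearts, numbered by replicate, of Pparg against the fat gene Adipoq (left), Ppara against the clock gene Dbp (middle) and Pdk4 against Ppara (right). Female replicate 1 stands apart for Adipoq at 1283, and Pdk4 spans 22187 to 95793 while Ppara spans 2449 to 3176.

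Markers of other cell types moved with sex in part. Of 10 macrophage markers 3 fell, beside 1.16% of all genes called in either direction. These were C1qa, Csf1r and C1qb, with log2 fold changes of -0.41, -0.36 and -0.39 (limma adjusted p = 0.0359, 0.0481 and 0.0493). All 10 had negative fold changes, and 7 had an unadjusted limma p under 0.05, beside 16.0% of all genes. No overlap between the sexes was found for 5 of the 10, beside 9.35% of all genes. The summed count of the 10 ran from 21292 to 24888 in females and from 25876 to 32362 in males, with no marker at 0. Among the fits without 1 heart, C1qa and C1qb were called only without male replicate 5, and Csf1r only without female replicate 1 or male replicate 5 (limma adjusted p otherwise up to 0.142). Of 6 fibroblast markers Lum rose by 0.30 (limma adjusted p = 0.00285), of 10 cardiomyocyte markers Ryr2 rose by 0.20 (limma adjusted p = 0.0341, a call that held only without male replicate 5 among the fits without 1 heart), and of 8 endothelial markers 0 were called, Cdh5 and Tie1 being nearest (limma adjusted p = 0.232 and 0.428). Fat genes nearest to the threshold were Cidea, at 1315 ± 51.7 in females and 1644 ± 200 in males, and Retn, at 234 ± 182 in females and 88.3 ± 36.8 in males (mean ± SD, n = 4 per sex; limma adjusted p = 0.0798 and 0.370). The part of these cell types in the values of the 10 regulators was not tested.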

How the data were processed

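The deposited signal values are, judged from the values themselves, reads that the authors scaled by a size factor for each heart. The table also holds the authors' log2 fold changes and the authors' p-values. The build was mm10, per the submitters' processing notes. No aligner, counter or strand setting is named in the labels or headers. Every value (100%, tolerance 0.001 reads) was a whole multiple of 1 read, so reads were recovered. On those reads edgeR's quasi-likelihood test called 216 genes and DESeq2 690.

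Here limma (version 3.58.1 under R 4.3.3, with its trend and robust options) was run on log2(value + 1) for genes with a value of at least 1 in 4 hearts, which removed 0 genes. This scale understates changes of low genes. Alternatives used edgeR 4.0.16, DESeq2 1.42.0, limma-voom, other pseudocounts and filters, blocks, total reads, and each heart left out. Gene positions and exon lengths came from GENCODE vM21 (mm10), which held 17869 of the 17911 identifiers. The labels do not say how the mice were housed or related, so p-values measure the spread between these hearts. The members and gene lists were chosen with earlier results of these data known. Named genes are the 10 members, and from each list the called genes (at most 6) or else the 2 with the smallest p, and the 3 genes most like each of Ppara, Ppargc1a, Esrra and Esrrg; others are marked. Some genes that this rule names are not reported here. Counts were simulated for the 17911 genes of this comparison, with changes planted only in genes with a mean value of at least 500. The share of planted changes that limma found was 4.00% for 1.1-fold, 78.0% for 1.25-fold, 98.0% for 1.5-fold and 94.0% for 2-fold. Of limma's calls there, 4.86% were wrong, and of DESeq2's 16.5%. Between hearts of a sex, squared differences were at least 8.34 times the sampling variance (chi-square per degree of freedom), so each heart counted as a separate sample.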

Additional observations from a re-analysis of the deposited data

Results flagged for a closer look

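In groups of 4 hearts, a heart was picked out when its gap to the nearest other was larger than Dixon's 95% critical value, as a share of the group's range. By chance about 1 in 20 groups is picked out this way, and 7 of the 92 groups examined were.

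Of the regulators, Ppargc1b in male replicate 3 stood high at 2150, where the other males ran from 1516 to 1586, and Esrrg in male replicate 4 stood low at 2866, where the other males ran from 3173 to 3221. Atf2 in male replicate 4 was low at 1957, and Cpt2 in that heart was high at 15566. Tfb1m in female replicate 2 was low at 386, Cidea in female replicate 1 was high at 1392, and C1qb in female replicate 3 was low at 1870.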

How the results depend on the processing

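No regulator was called under any of the 22 alternatives, which include DESeq2, edgeR, limma-voom, both blocks, each heart left out and the cutoffs stated in the series. Of 210 fold changes of the 10 genes under the alternatives 208 kept their direction; the exceptions, with total reads as a covariate, were Ppargc1a (-0.010) and Pparg (-0.019), and the cause was not tested. The count of called genes over the table, 208, was 690 with DESeq2, 35 in limma without its trend and robust options, and 26 with a block by library code number, and from 77 to 516 without 1 heart; the cause was not tested. The replicate block by title number gave 145 genes, and under either block the 3 called PPAR targets were no longer called. Same-numbered hearts did not deviate together in every pair (correlations of 0.193, -0.0738 and -0.0944 for titles 1, 3 and 4, and of 0.193, -0.0738 and 0.193 for library codes 1, 3 and 5, where female replicate 4 has code 5), so the numbers were not taken to pair hearts. Of 273 list counts, 219 stayed within 1.5 times, but several lists had 0 calls in the main fit, and 0 against 0 counted as unchanged. Lists with calls were less steady. The count of 1 for PPAR ligand supply was 0 under either block and 3 with DESeq2. The count of 3 for macrophage markers was 0 with the block by library code number and 6 with DESeq2. The 5 hearts with the most reads, an alternative chosen after seeing the data, called 0 regulators. With 4 hearts per sex, differences of about 1.1-fold were mostly below what the test could call.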
